A study of Mus musculus with 4 samples.

Results

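The 9 genes *Procr*, *Slamf1*, *Cd48*, *Cd34*, *Kit*, *Esam*, *Tek*, *Fgd5* and *Thy1*, used to mark hematopoietic stem cells (HSCs) and multipotent progenitors (MPPs), were followed in RNA sequencing of fetal liver LSK cells. LSK cells are the lineage-negative, Sca-1+, c-Kit+ cells in which HSCs are enriched. The genes were taken by name from the table the authors deposited, which lists 39186 genes, and each of the 9 names matched 1 gene. The libraries came from *Pich*-KO (2 samples) and *Pich*-WT (2 samples) embryos on the C57BL/6 strain. Per the study's methods, fetal livers for sorting were dissected at E14.5, and the *Pich*-KO line carries a small germline deletion in exon 2 of the X-linked *Pich* gene, which encodes the DNA translocase PICH, so that every cell of the embryo is mutant. The labels give no separate embryo, litter or pool for each sample. The p-values thus measure only the spread between these samples, which may be technical in part and, for *Pich*-KO, in whole.

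HSC markers are mostly proteins at the cell surface that allow living cells to be sorted. KIT, the receptor of stem cell factor, is part of the LSK gate itself. CD150 (*Slamf1*) and CD48 are neighbours in the SLAM family of immune receptors, and the long-term HSC carries the former and lacks the latter. EPCR (*Procr*, the receptor of protein C), the junction protein ESAM and the angiopoietin receptor TIE2 (*Tek*) mark HSCs and are also made by endothelial cells, as are the sialomucin CD34 and *Fgd5*, which encodes an exchange factor for the small GTPase CDC42. THY1 is a small glycolipid-anchored protein found at a low level on adult HSCs and at a high level on T cells.

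The table gives normalized counts, which are reads counted on a gene divided by 1 size factor per sample. Whole reads were recovered from these values in every sample and came to 14703215 to 20933919 reads on genes. The size factors are those of the authors. A chi-square test of the reads, divided by its degrees of freedom, gave 17.7 for the *Pich*-KO samples and 9.54 for the *Pich*-WT samples, so neither group holds the same library deposited again. *Pich*-WT sample 2 had 0 reads in all on *Ddx3y*, *Uty*, *Kdm5d* and *Eif2s3y*, which are Y-linked, and the other samples had 1607 to 2848. The *Pich*-WT samples thus differ in the sex of their embryos and do not come from the same RNA. The transcripts of the knockout allele are still counted, and the PICH gene, listed as *Ercc6l*, stood at 1142 and 1232 normalized counts in samples 1 and 2 of *Pich*-KO, against 772 and 661 in those of *Pich*-WT, so its mRNA does not check the labels. For the labelled cell type, 3 genes were read. *Ly6a*, which encodes Sca-1, had 3586 and 2978 normalized counts in *Pich*-KO, against 901 and 1061 in *Pich*-WT, *Ptprc*, which encodes the pan-leukocyte protein CD45, had 4336 to 5075, against 4020 to 4464, and *Kit* is given below. All 3 were detected in every library. Markers of other cell types were detected too, as given below, so detection of these 3 does not show that the libraries hold LSK cells alone.

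The coordinates of the 9 genes in the deposited table were the same as in GENCODE M21, so positions are on GRCm38. All 9 lie on the plus strand. *Cd48* (chromosome 1, 171682009 to 171705258) and *Slamf1* (chromosome 1, 171767127 to 171801184) lie 61.9 kb apart, and *Cd34* lies on the same chromosome from 194938819 to 194961279. *Procr* lies on chromosome 2 from 155751117 to 155755471, *Tek* on chromosome 4 from 94739289 to 94874976, *Kit* on chromosome 5 from 75574916 to 75656722 and *Fgd5* on chromosome 6 from 91978878 to 92076004. *Esam* and *Thy1* lie on chromosome 9, from 37528078 to 37538319 and from 44043384 to 44048579. Of these genes, *Cd34* shares exon bases with another annotated gene, 148 bases with the antisense gene *Gm16897*, which had 31 to 43 reads against at least 5477 for *Cd34*. Whether the counting used strand is not given in the sources used here.

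RefSeq promoters (build GRCm38.p6, 250 bases before to 50 after the start of the gene) were matched for 7 of the 9 genes, and those of *Esam* and *Thy1* were not analysed here. The 4 below are shown because *Procr* and *Tek* belong to the genes that fell in *Pich*-KO cells and because *Slamf1* and *Cd48* are neighbours with fold changes of opposite sign. Capitals mark GATAA (the core of GATA sites), GGAAG (the core of ETS sites) and TGTGGT (the core of RUNX sites), on either strand.
Procr (chr2:155750967-155751266, plus strand): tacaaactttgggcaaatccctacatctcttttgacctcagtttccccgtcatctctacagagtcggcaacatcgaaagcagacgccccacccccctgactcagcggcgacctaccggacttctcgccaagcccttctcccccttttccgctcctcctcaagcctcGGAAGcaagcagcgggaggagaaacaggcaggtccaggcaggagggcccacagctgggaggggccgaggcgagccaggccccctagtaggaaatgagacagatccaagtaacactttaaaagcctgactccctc
Tek (chr4:94739039-94739338, plus strand): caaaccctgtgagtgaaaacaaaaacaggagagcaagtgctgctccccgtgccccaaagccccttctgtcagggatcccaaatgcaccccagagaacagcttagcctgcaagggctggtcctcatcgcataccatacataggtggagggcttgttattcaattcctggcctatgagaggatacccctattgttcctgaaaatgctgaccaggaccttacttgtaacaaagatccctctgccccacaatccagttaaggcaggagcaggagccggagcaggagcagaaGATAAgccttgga
Slamf1 (chr1:171766882-171767181, plus strand): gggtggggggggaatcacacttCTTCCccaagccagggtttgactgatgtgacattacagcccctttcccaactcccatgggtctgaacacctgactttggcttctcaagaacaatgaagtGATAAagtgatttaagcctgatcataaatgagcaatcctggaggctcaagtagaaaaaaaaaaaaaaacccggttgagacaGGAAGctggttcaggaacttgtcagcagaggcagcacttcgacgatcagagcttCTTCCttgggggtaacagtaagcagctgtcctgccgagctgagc
Cd48 (chr1:171681742-171682041, plus strand): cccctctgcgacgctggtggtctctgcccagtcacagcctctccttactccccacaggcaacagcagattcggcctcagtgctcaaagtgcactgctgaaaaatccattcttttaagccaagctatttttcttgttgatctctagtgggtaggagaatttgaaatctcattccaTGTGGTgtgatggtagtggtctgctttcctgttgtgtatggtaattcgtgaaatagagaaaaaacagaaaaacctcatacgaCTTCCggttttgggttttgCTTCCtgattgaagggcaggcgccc

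GATAA, on either strand, was found in the promoters of *Cd34*, *Slamf1* and *Tek*, 3 of 7, against 25.3% of the 32544 promoters of this length. In *Tek* it began at base 38 after the start, and in *Slamf1* 129 bases before it. GGAAG was found in 6 of 7, all but *Tek*, against 71.3% of promoters. TGTGGT was found in *Cd48* alone, 1 of 7 against 16.7%, and the E-box CAGCTG in *Procr* and *Slamf1*, 2 of 7 against 16.4%. The core of the interferon-stimulated response element was in 0 of 7, against 3.45% of promoters. The motifs do not overlap in the promoters shown. These matches describe the letters in the window and were not tested against the fold changes.

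To see how *Pich* deficiency changed these genes, limma was fitted to log2(normalized count + 1) of the 32428 genes whose mean reached 1, and p-values were adjusted over all of these by the Benjamini-Hochberg method. On this scale the change of a low gene is understated. With an adjusted p under 0.05 as the call, 6 of the 9 markers were lower in *Pich*-KO, namely *Esam*, *Tek*, *Procr*, *Thy1*, *Fgd5* and *Slamf1*, where 9.6% of all tested genes were lower and 17.2% were called in either direction. *Kit*, *Cd48* and *Cd34* did not pass the test, and none of the 9 was called higher, where 7.58% of all genes were. These shares include many genes with few reads. In a fit of the 13924 genes with at least 10 reads in every sample, 22.5% were lower and 21.1% higher. There 5 of the 8 markers tested were lower and 0 higher. The median log2 fold change of the 9 was −1.65, beside 0.02 over all tested genes. For 8 of the 9 genes, all but *Cd34*, no *Pich*-KO value overlapped with a *Pich*-WT value, which held for 56.1% of all tested genes. In bulk RNA, fewer cells of a type and less RNA per cell cannot be told apart.

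**Figure D1:**
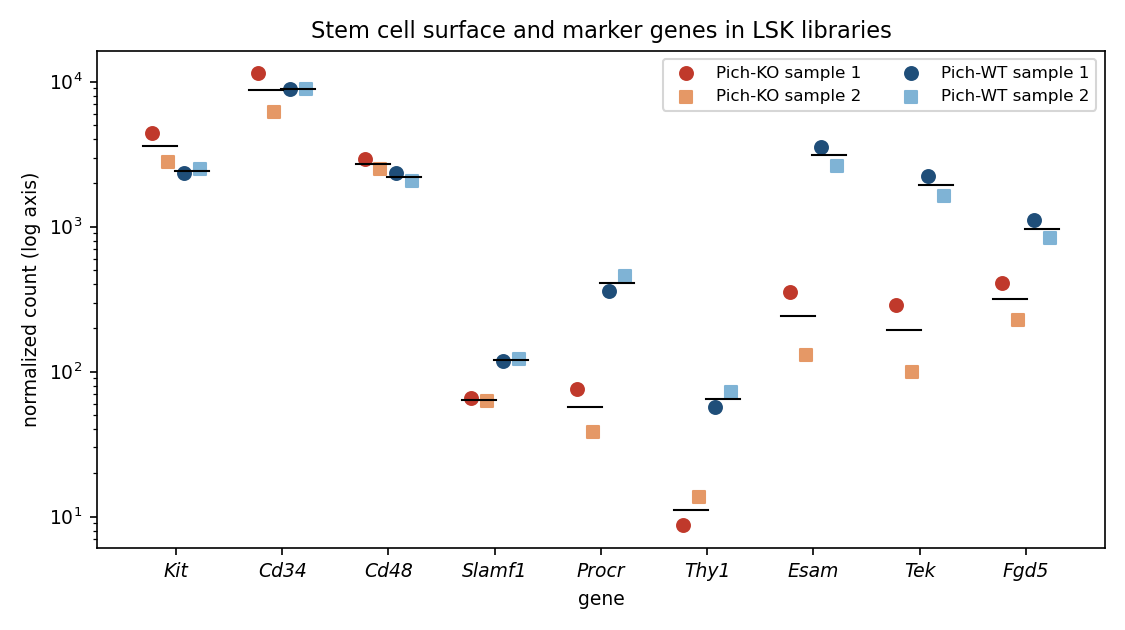
Normalized counts (log axis) of the 9 marker genes (x axis) in each of the 4 LSK libraries. Points are single samples and black lines are group means. *Esam*, *Tek*, *Procr* and *Thy1* show the widest gaps between *Pich*-WT (blue) and *Pich*-KO (red and orange), while *Cd34* of *Pich*-WT lies between the *Pich*-KO samples.

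Of the receptors that define the gates, *Kit* had 4447 and 2772 normalized counts in *Pich*-KO samples 1 and 2, against 2328 and 2513 in *Pich*-WT samples 1 and 2. Samples stand in this order below. Both *Pich*-KO values lay above both *Pich*-WT values, the lower of them by little. The log2 fold change was 0.54 (standard error 0.20, 95% interval 0.08 to 0.99, adjusted p = 0.114, limma), and without *Pich*-KO sample 1 it was 0.20. *Kit* was past the threshold with DESeq2 on the recovered reads (adjusted p = 0.0178), which called 16.7% of all genes with an adjusted p higher and 20.3% lower.

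*Cd34*, the sialomucin used to separate MPPs from the most primitive adult HSCs, was the most abundant of the 9 by count. It had 11424 and 6226 normalized counts in *Pich*-KO, against 8901 and 8940 in *Pich*-WT. The *Pich*-KO samples lay on either side of *Pich*-WT, and the means were 8825 ± 3676 (SD, n = 2) and 8921 ± 27.3 (SD, n = 2). The log2 fold change was −0.08 (standard error 0.23, 95% interval −0.62 to 0.46, adjusted p = 0.869, limma). It was −0.52 without *Pich*-KO sample 1 and 0.36 without *Pich*-KO sample 2, and its sign also turned with edgeR on the recovered reads.

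Among the SLAM genes, *Slamf1* had 65.4 and 62.5 normalized counts in *Pich*-KO, against 118 and 123 in *Pich*-WT. Its values were close within each group and lower in *Pich*-KO, with means of 64.0 ± 2.07 and 121 ± 3.53 (SD, n = 2 each). The log2 fold change was −0.90 (standard error 0.25, adjusted p = 0.0445, limma), the weakest call of the 6, and its adjusted p was 0.0591 with all 39186 genes kept and 0.0539 with DESeq2. *Cd48*, a ligand of the SLAM receptor CD244 and of CD2, had 2937 and 2517 normalized counts in *Pich*-KO, against 2328 and 2056 in *Pich*-WT. It was higher in both *Pich*-KO samples, with a log2 fold change of 0.31 (standard error 0.12, 95% interval 0.03 to 0.59) that did not pass the test (adjusted p = 0.131, limma). With edgeR and upper-quartile scaling its adjusted p was 0.045, where 19.1% of all tested genes were called higher.

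*Procr*, whose protein marks HSCs in fetal liver and adult marrow, had 76.3 and 38.6 normalized counts in *Pich*-KO, against 362 and 460 in *Pich*-WT. The groups were well apart, with means of 57.5 ± 26.7 and 411 ± 69.4 (SD, n = 2 each), a 7.15-fold lower mean in *Pich*-KO. The log2 fold change was −2.88 (standard error 0.33, adjusted p = 0.000872, limma). *Thy1* was the least expressed by count, with 8 and 12 reads or 8.73 and 13.6 normalized counts in *Pich*-KO, against 73 and 72 reads or 57.0 and 72.0 normalized counts in *Pich*-WT. It was lower in both *Pich*-KO samples, and its log2 fold change of −2.45, with 0.41 as the standard error and 0.00507 as the adjusted p from limma, rests on few reads.

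*Esam*, whose protein lies at the junctions between endothelial cells, changed most. It had 353 and 131 normalized counts in *Pich*-KO, against 3556 and 2641 in *Pich*-WT, so that the higher *Pich*-KO sample was far below the lower *Pich*-WT sample. The means were 242 ± 157 and 3098 ± 647 (SD, n = 2 each), 12.8-fold apart, and the log2 fold change was −3.83 (standard error 0.40, adjusted p = 0.00053, limma). *Tek* had 288 and 100 normalized counts in *Pich*-KO, against 2242 and 1630 in *Pich*-WT. Its means of 194 ± 133 and 1936 ± 433 (SD, n = 2 each) were 9.98-fold apart, and the log2 fold change was −3.48 (standard error 0.42, adjusted p = 0.0011, limma). The summed level of 20 endothelial markers, described further below, was 9.26-fold lower in *Pich*-KO.

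*Fgd5*, the one marker here whose protein acts inside the cell, had 409 and 227 normalized counts in *Pich*-KO, against 1108 and 830 in *Pich*-WT. Both *Pich*-KO samples were below both *Pich*-WT samples, with means of 318 ± 128 and 969 ± 197 (SD, n = 2 each), 3.05-fold apart. The log2 fold change was −1.65 (standard error 0.28, adjusted p = 0.00501, limma), smaller than for *Esam*, *Tek*, *Procr* and *Thy1* and larger than for *Slamf1*.

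The exact two-sided permutation test of a single gene cannot go below p = 0.333 in this design, so the calls depend on limma's pooling of variance over genes. When that pooling ignored the level of expression, none of the 9 passed, nor did any of the 32428 tested genes. The adjusted p of the 6 genes then ran from 0.0862 to 0.161 (limma), although 6 had an unadjusted p under 0.05. Each sample was also left out in turn, where the lone sample of its group is assumed to vary like the others. The log2 fold changes of the 6 genes stayed negative in each case. Calls in these fits are given in the closing section beside those over all genes. Without *Pich*-WT sample 2, which has no Y-linked reads, they were −4.04 for *Esam*, −3.71 for *Tek*, −2.71 for *Procr*, −2.28 for *Thy1*, −1.86 for *Fgd5* and −0.87 for *Slamf1*.

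**Figure D2:**
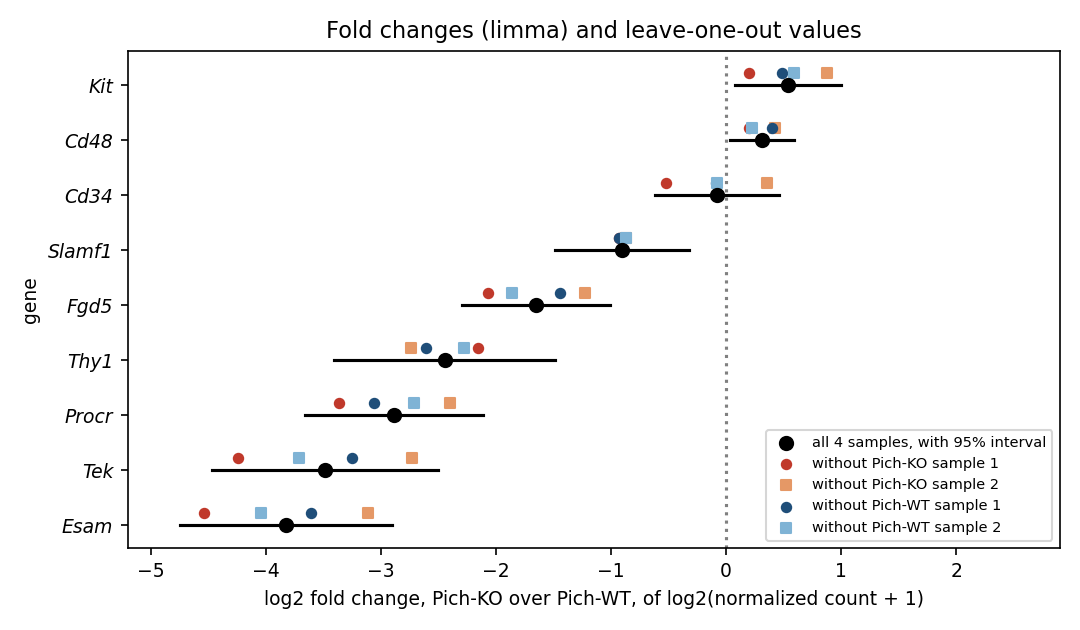
Log2 fold change, *Pich*-KO over *Pich*-WT, of log2(normalized count + 1) (x axis) for the 9 genes (y axis). Black points with bars are the limma estimates with 95% intervals, and colored points leave out 1 sample. The 6 genes from *Slamf1* to *Esam* stay below 0 whichever sample is left out, while *Cd34* lies on either side of 0.

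Levels were compared between genes as normalized counts per kilobase of the deposited gene length. In *Pich*-WT cells the order was *Cd48* (1844 ± 162 per kilobase), *Cd34* (1224 ± 3.75), *Esam* (1081 ± 226), *Tek* (411 ± 91.9), *Kit* (272 ± 14.7), *Procr* (202 ± 34.2), *Fgd5* (154 ± 31.3), *Thy1* (21.5 ± 3.53) and *Slamf1* (19.6 ± 0.57; SD, n = 2 each). The samples of *Cd34* and *Esam* overlapped, as did those of *Thy1* and *Slamf1*, and those of *Procr* and *Fgd5* lay close, at 178 and 226 against 176 and 132 per kilobase.

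In *Pich*-KO cells *Cd48* (2294 ± 250 per kilobase), *Cd34* (1211 ± 504) and *Kit* (405 ± 133) led the order, and their samples did not overlap. *Esam* (84.4 ± 54.9), *Fgd5* (50.6 ± 20.4), *Tek* (41.2 ± 28.2) and *Procr* (28.3 ± 13.1) followed, and each of these overlapped with its neighbour in the order. *Slamf1* (10.4 ± 0.34) and *Thy1* (3.73 ± 1.16; SD, n = 2 each) came last. *Kit* thus stood below *Esam* and *Tek* in both *Pich*-WT samples and above them in both *Pich*-KO samples.

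The scaling of the samples all but drops out when a marker is divided by another of the same library, and 5 such ratios were compared. The log2 ratio of *Slamf1* to *Cd48*, the genes behind the CD150 and CD48 gates, was −5.47 and −5.31 in *Pich*-KO, against −4.29 and −4.05 in *Pich*-WT samples, a difference of −1.22. That of *Procr* to *Cd48* was −5.25 and −5.99 against −2.68 and −2.16, a difference of −3.20. Both ratios were lower in every *Pich*-KO library.

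The log2 ratio of *Cd34* to *Kit* was 1.36 and 1.17 in *Pich*-KO, against 1.93 and 1.83 in *Pich*-WT, a difference of −0.62, so that the ratio separated the groups although *Cd34* alone did not. *Tek* to *Kit* gave −3.94 and −4.78 against −0.05 and −0.62, and *Esam* to *Kit* gave −3.65 and −4.40 against 0.61 and 0.07. In all 5 ratios the *Pich*-KO libraries were below the *Pich*-WT libraries, and each had an exact two-sided permutation p of 0.333, the smallest that 2 samples against 2 allow, and the same value after Benjamini-Hochberg adjustment over the 5 ratios. For all but *Cd34* to *Kit* this follows from the single genes. There the first gene was lower and the second higher in both *Pich*-KO samples. *Cd48* and *Kit* also recur, so the 5 ratios are not separate results.

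**Figure D3:**
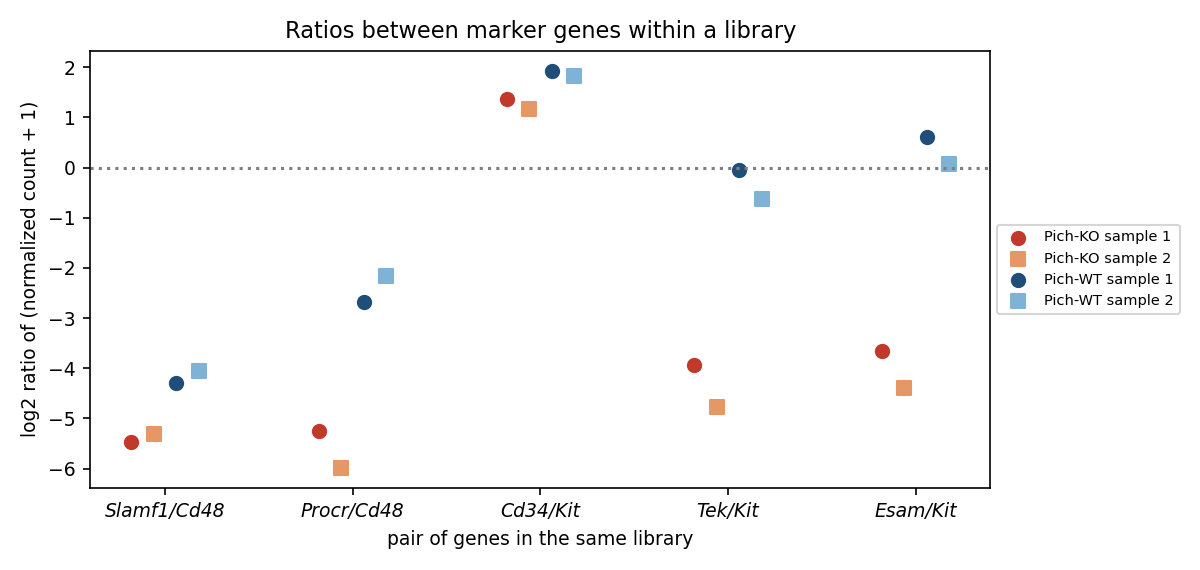
Log2 ratio of (normalized count + 1) between marker genes of the same library (y axis) for 5 gene pairs (x axis), 1 point per sample. For each pair both *Pich*-KO points lie below both *Pich*-WT points, by the most for *Esam*/*Kit* and *Tek*/*Kit* and by the least for *Cd34*/*Kit*.

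The markers also differed between the *Pich*-KO samples. *Pich*-KO sample 1 was higher than sample 2 in 8 of the 9 genes, all but *Thy1*, where 51.9% of the 13928 genes with at least 10 normalized counts in every sample were. The ratio was 2.88 for *Tek*, 2.70 for *Esam*, 1.98 for *Procr*, 1.83 for *Cd34*, 1.80 for *Fgd5* and 1.60 for *Kit*, so 6 of the 9 were above 1.5, beside 10.7% of all genes. It was 1.17 for *Cd48* and 1.05 for *Slamf1*. Between the *Pich*-WT samples the ratio of sample 1 to sample 2 ran from 0.787 for *Procr* to 1.38 for *Tek*, and 0 of the 9 were above 1.5, beside 5.52% of all genes.

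Over the 4 samples, the gene nearest to each marker by the root mean square difference of centred log2 values was sought among the 10544 genes whose mean reached 100. The guidance receptor gene *Robo4*, a member of the endothelial list below, was nearest to *Esam* (0.019). *F2r*, which encodes the thrombin receptor PAR1, was nearest to *Fgd5* (0.017), *Hic1* to *Tek* (0.059), *Rab20* to *Procr* (0.082) and *Ikzf3* to *Thy1* (0.054). *Asah1* was nearest to *Slamf1* (0.011), *Epsti1* to *Kit* (0.014), the predicted gene *Gm10093* to *Cd48* (0.020) and *Cbarp* to *Cd34* (0.043). With 4 samples such likeness is a description only.

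The ligands and partners of the markers were read from the same comparison. For the counts of this and the later lists, the shares over all tested genes were 9.6% lower and 7.58% higher. In the fit limited to genes with at least 10 reads in every sample they were 22.5% and 21.1%. Of the 5 genes around TIE2, 3 were lower in *Pich*-KO, with a median log2 fold change of −1.30. These were *Tie1*, the sister receptor (log2 fold change −3.33, adjusted p = 0.00068, limma), the phosphatase gene *Ptprb* (−3.20) and the adaptor gene *Dok2* (−1.30). The ligand gene *Angpt1* had 1042 and 342 normalized counts in *Pich*-KO, against 1198 and 1310 in *Pich*-WT, and did not pass (log2 fold change −1.07), nor did *Angpt2* (−1.28).

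Around EPCR, 3 of 4 genes were lower, with a median of −1.48. *F2r* (log2 fold change −1.66), *Pros1*, which encodes protein S (−1.49), and *Thbd*, which encodes thrombomodulin (−0.97), fell, and *Proc*, which encodes protein C (−1.47), did not pass. *Podxl* (log2 fold change 0.05) and *Podxl2* (−1.19), relatives of CD34, did not pass. Of the other FGD genes and *Cdc42*, *Fgd1* (log2 fold change −1.91) and *Cdc42* (−0.56) fell, while *Fgd2* (−0.02), *Fgd3* (−0.52), *Fgd4* (−0.07) and *Fgd6* (−0.72) did not pass.

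The genes that act with KIT went both ways. Of 10, 2 were higher and 4 lower, with a median of −0.25. In the fit limited to genes with at least 10 reads in every sample, 2 were higher and 5 lower. There 21.1% of all genes were higher and 22.5% lower, so the higher count is near that share. *Ptpn11*, which encodes the phosphatase SHP2 (log2 fold change 1.04), and *Cbl*, which encodes a ubiquitin ligase (0.59), rose. The kinase gene *Lyn* (−0.91), the adaptor genes *Grb2* (−0.75) and *Shc1* (−0.37), and *Sh2b3*, which encodes the inhibitor LNK (−0.65), fell. *Gab2* (0.13), *Ptpn6* (0.22), *Pik3r1* (−0.14) and the ligand gene *Kitl* (−1.38) did not pass.

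In the SLAM family, 4 of 9 other receptors and adaptors were lower, with a median of −0.90 that was −0.43 without *Pich*-KO sample 1. They were *Slamf7* (log2 fold change −3.28), *Cd84* (−1.90), *Slamf8* (−1.81) and *Slamf9* (−1.69). The log2 fold changes of *Ly9* (0.07), *Cd244* (0.23), *Slamf6* (−0.90) and the adaptor genes *Sh2d1a* (0.05) and *Sh2d1b1* (0.42) did not pass.

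Of 21 other surface genes of HSCs and MPPs, 7 were lower and 3 higher, with a median of −0.75. The mucin gene *Emcn* fell most (log2 fold change −2.99), from 661 and 585 normalized counts in *Pich*-WT to 107 and 55.7 in *Pich*-KO, and the TGF-beta co-receptor gene *Eng* fell too (−2.44). *Itga2b* had the smallest fold change of the called genes (−0.86). The chemokine receptor gene *Cxcr4* rose most (3.65), from 11.4 ± 4.84 to 154 ± 52.5 normalized counts (SD, n = 2 each), and *Ly6a* (1.74) rose as well. *Flt3* had 3648 and 2478 normalized counts in *Pich*-KO, against 4191 and 4481 in *Pich*-WT, and did not pass (adjusted p = 0.0723, limma).

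Of 16 other genes used as HSC-associated, 13 were lower, with a median of −1.36. Some of these are also expressed outside HSCs, such as *Gata2* in mast cells and megakaryocytes and *Gimap1* (−1.10) and *Gimap6* (−1.34) in lymphocytes. *Ramp2* fell most (log2 fold change −3.57) and *Gata2* least (−0.58). The transcription factor gene *Hlf* fell from 2360 ± 266 to 485 ± 237 normalized counts and *Mecom* from 735 ± 22.1 to 176 ± 57.1 (SD, n = 2 each). *Vldlr*, *Meis1* and *Tcf15* had log2 fold changes of −1.16, −0.57 and −1.10 and did not pass. *Ramp2*, *Emcn*, *Eng* and *Tie1* are, like *Esam* and *Tek*, also made by endothelial cells.

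**Figure D4:**
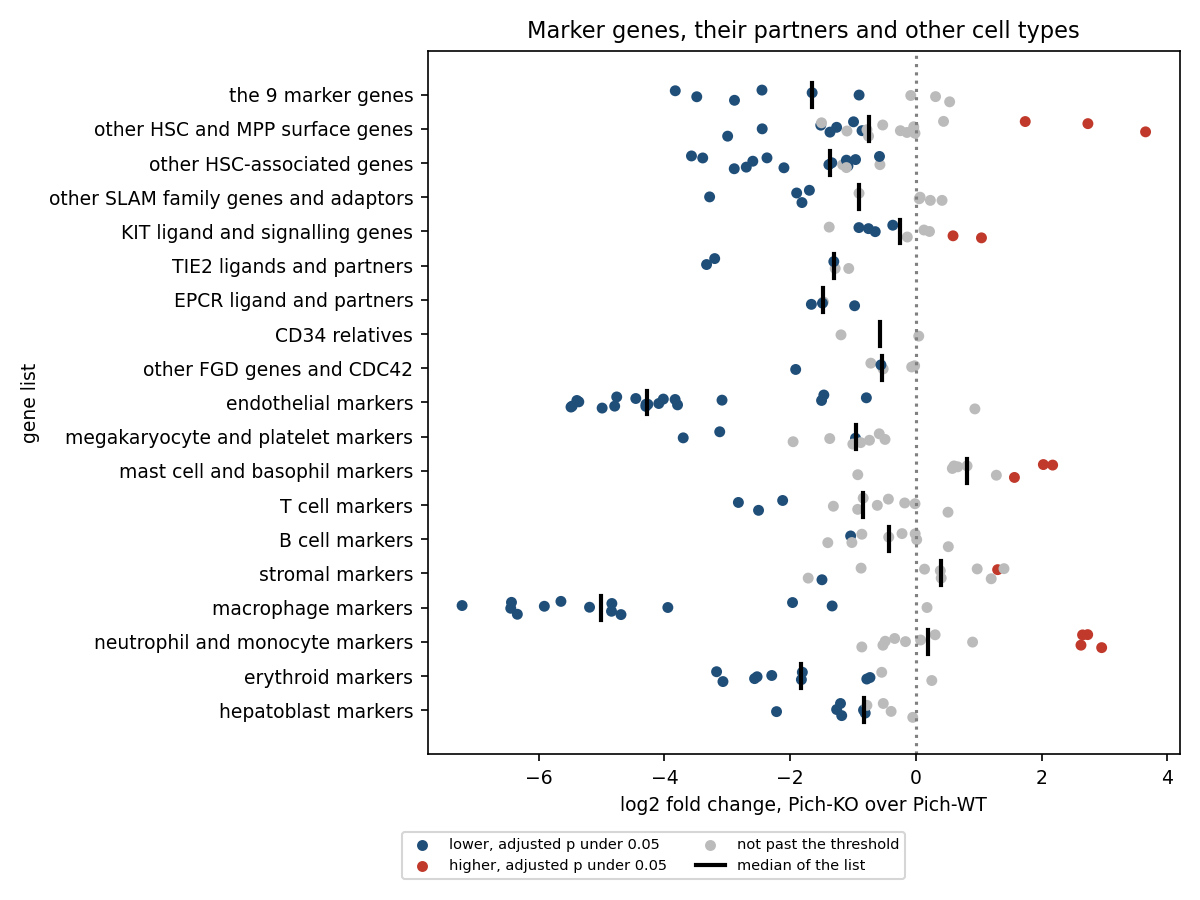
Log2 fold change, *Pich*-KO over *Pich*-WT (x axis), of each tested gene of the 9 markers, of their partner lists and of markers of other cell types (y axis). Points are genes, colored by the limma call, and black lines are list medians. The 9 markers lie between −3.83 and 0.54, endothelial and macrophage markers lie mostly below −3, and the neutrophil and monocyte list holds 4 genes above 2.

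Markers of other cell types, some of which carry these genes, were compared as well. Of 20 endothelial markers, 19 were lower in *Pich*-KO, with a median log2 fold change of −4.28, and all were detected. Their summed normalized counts were 7060 and 5148 in *Pich*-KO, against 67627 and 45385 in *Pich*-WT samples, 9.26-fold apart in the mean, beside 12.8-fold for *Esam*, 9.98-fold for *Tek*, 7.15-fold for *Procr*, 5.77-fold for *Thy1*, 3.05-fold for *Fgd5* and 1.88-fold for *Slamf1*. *Sox17* fell most (log2 fold change −5.49), from 462 ± 187 to 8.91 ± 0.26 normalized counts (SD, n = 2 each), and *Egfl7* least (−0.79). *Egfl7* had the largest part of the *Pich*-KO sums, with 2630 and 2133 normalized counts, against 4383 and 3812 in *Pich*-WT. *Pecam1* came next, with 1138 and 859 against 3146 and 2488. The fold of the summed level thus depends on which genes are listed. *Fcgr2b* (log2 fold change 0.94) did not pass. *Cdh5*, which encodes VE-cadherin, had 127 and 71.6 normalized counts in *Pich*-KO, against 2122 and 1673 in *Pich*-WT. The antibodies of the lineage gate, against CD4, CD8, Gr-1, B220 and Ter119, name no endothelial antigen. They name no product of the macrophage, megakaryocyte or mast cell lists below either. Whether LSK cells express the endothelial list themselves was not tested. The part of endothelial RNA in the fall of *Esam*, *Tek*, *Procr* and *Fgd5* was not tested either.

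Of 14 macrophage markers 13 were lower, with a median of −5.02 and summed normalized counts of 9272 to 10613 in *Pich*-KO and 63952 to 66230 in *Pich*-WT. *Marco* fell most (log2 fold change −7.22) and *Csf1r* least (−1.33). Of 11 tested erythroid markers 9 were lower (median −1.82, with −3.17 for *Hbb-bs* and −0.73 for *Klf1* as the ends, where globin genes share reads with near-identical copies), with sums of 32738 to 36314 against 138508 to 181129. Of 11 megakaryocyte and platelet markers, cells that also make ESAM, 3 were lower (*Clec1b*, *Pf4* and *Gp9*; median −0.96), with sums of 763 and 861 against 4920 and 3024. *Pf4* and *Clec1b* carried most of the *Pich*-WT sums, and the other 9 genes summed to 524 and 539 against 1973 and 738, where *Ppbp* had 692 in *Pich*-WT sample 1 and 78.0 in sample 2. The median was −0.53 without *Pich*-WT sample 1 and −1.58 without sample 2. Of 10 hepatoblast markers 6 were lower, with a median of −0.82 and sums of 2672 to 3139 against 4487 to 5009. *Trf* (log2 fold change −2.22), *Ahsg* (−1.26), *Apoa1* (−1.20), *Ttr* (−1.18), *Alb* (−0.83) and *Apoa2* (−0.80) fell, and *Serpina1a* (−0.78), *Afp* (−0.52), *Apob* (−0.39) and *Fgb* (−0.05) did not pass.

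T cells carry THY1 at a high level. Of 11 T cell markers 3 were lower (*Bcl11b*, *Cd4* and *Cd3g*; median −0.84), and their sums were 529 to 979 in *Pich*-KO and 1085 to 1399 in *Pich*-WT. Of the CD3 genes, which define T cells, *Cd3e* had 3 reads in each *Pich*-KO sample and 9 and 2 in the *Pich*-WT samples, *Cd3d* had 8 and 12 against 25 and 24, and *Cd3g* had 36 and 32 against 194 and 185. *Cd4* had 54 and 14 reads against 182 and 226 and *Lck* 425 and 171 against 615 and 601, while *Cd8a* and *Cd8b1* had at most 5 in any library. Mast cells carry KIT, and of 9 tested mast cell and basophil markers 3 were higher, with a median of 0.81 and sums of 1291 to 1967 against 428 to 531. The median was 0.04 without *Pich*-KO sample 2 and 2.03 over the genes with at least 10 reads in every sample. *Ms4a2* (log2 fold change 2.18), *Cpa3* (2.03) and *Hdc* (1.57) rose, and *Mcpt8* (1.28), *Prss34* (0.81), *Cma1* (0.67), *Fcer1a* (0.61), *Tpsab1* (0.58) and *Tpsb2* (−0.92) did not pass. Of these, *Cma1*, *Fcer1a*, *Tpsab1* and *Tpsb2* had at most 5 reads in any library. *Hdc* (719 and 1152 normalized counts in *Pich*-KO, against 242 and 387 in *Pich*-WT) and *Cpa3* (498 and 437 against 134 and 96) carried the sums. *Mcpt8* and *Prss34* were raised in *Pich*-KO sample 2 alone, with 83 and 151 reads. The part of T cells and mast cells in the values of *Thy1* and *Kit* was not tested.

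Of 12 neutrophil and monocyte markers 4 were higher (*Ly6c2*, *Prtn3*, *Ctsg* and *Mpo*; median 0.19), with sums of 67306 and 125965 in *Pich*-KO, against 18572 and 21090 in *Pich*-WT. *Mpo* and *Prtn3*, granule genes of early myeloid progenitors, carried these sums, and the other 10 genes summed to 5823 and 20203 against 6754 and 6950, so that *Pich*-KO sample 1 was below and sample 2 above both *Pich*-WT samples. The 8 that did not pass had log2 fold changes of −0.86 (*Ltf*), −0.52 (*Camp*), −0.49 (*Ngp*), −0.34 (*Ly6g*), −0.16 (*S100a9*), 0.08 (*Csf3r*), 0.31 (*S100a8*) and 0.90 (*Elane*). The late granule gene *Ltf* had 154 and 739 normalized counts in *Pich*-KO, against 639 and 588 in *Pich*-WT. Of 9 B cell markers 1 was lower, *Blnk* (log2 fold change −1.04), with a median of −0.43 and sums of 1406 to 2493 against 1933 to 2325. Log2 fold changes of genes that did not pass ran from −1.40 (*Ms4a1*) through −1.02 (*Igll1*), −0.86 (*Vpreb1*), −0.43 (*Ebf1*), −0.22 (*Cd79a*) and 0.01 (*Cd79b*) to 0.52 (*Pax5*). Of 10 stromal markers 1 was higher, *Col1a1* (1.30), and 1 lower, *Cxcl12* (−1.49), with a median of 0.40 and sums of 754 to 1239 against 426 to 631. The others had log2 fold changes from −1.71 (*Des*) through −0.87 (*Lrat*), 0.14 (*Lum*), 0.39 (*Dcn*), 0.40 (*Pdgfra*), 0.98 (*Pdgfrb*) and 1.20 (*Col1a2*) to 1.40 (*Col3a1*).

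**Figure D5:**
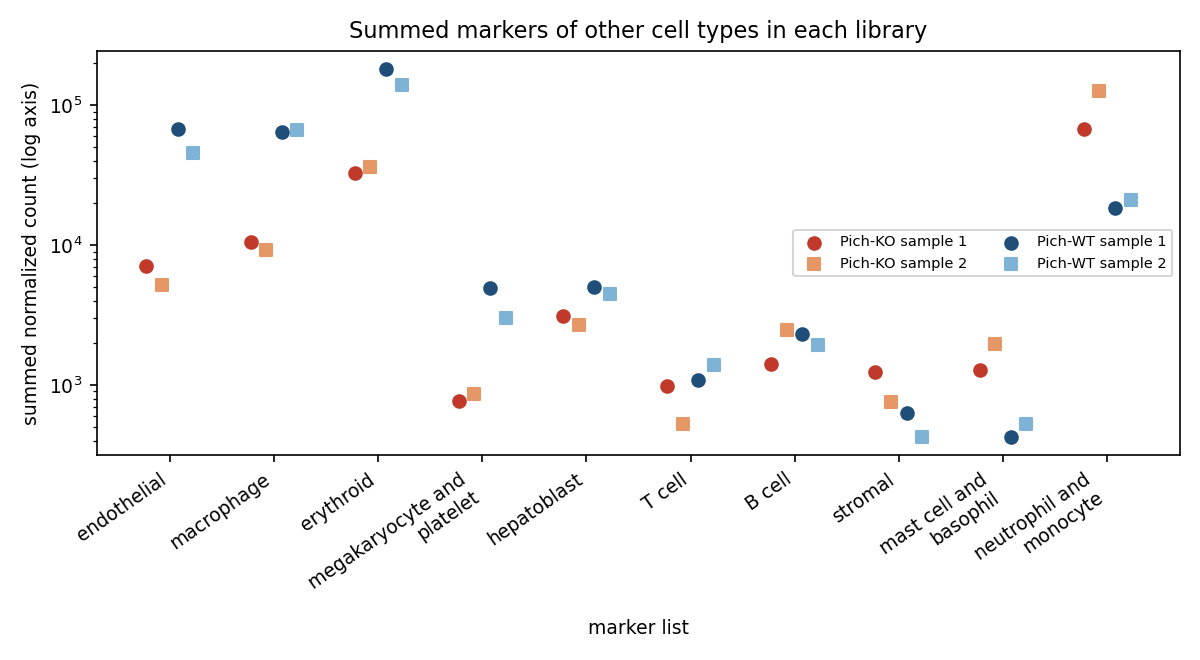
Summed normalized counts (log axis) of marker genes of 10 other cell types (x axis) in each of the 4 LSK libraries, 1 point per sample. The endothelial, macrophage, erythroid and megakaryocyte sums are several times lower in both *Pich*-KO libraries, that of megakaryocytes mostly through *Pf4* and *Clec1b*. The mast cell and the neutrophil and monocyte sums are higher, the former carried by *Hdc* and *Cpa3* and the latter by *Mpo* and *Prtn3*.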

How the data were processed

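RNA of sorted fetal liver LSK cells of 2 samples per genotype was sequenced after library preparation with a TruSeq RNA kit, per the labels. The values the authors deposited are a signal: gene counts divided by 1 size factor per sample, relative to *Pich*-WT sample 2. The submitters' processing notes name Bowtie 0.12.2 and the builds mm8 and mm9, while 97.8% of 39163 matched genes had the start and end of GENCODE M21 on GRCm38. The counter is not given in the sources used here. The table also holds log2 fold changes and a p-value and adjusted p-value per gene from the authors' own comparison and the authors' group means, which were not used.

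Whole reads were recovered for 100% of values in each sample (within 0.01 of a whole number). limma 3.58.1 in R 4.3.3 was run on log2(value + 1) of genes whose mean reached 1, with a variance trend and Benjamini-Hochberg adjustment. Alternatives were a pseudocount of 0.1, no filter, at least 10 reads in every sample, no trend, TMM scaling, edgeR 4.0.16 and DESeq2 1.42.0 on the recovered reads, a replicate block and each sample left out. Ratios between markers were tested by exact permutation.

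Named genes were the 9 markers, the genes of the sort and the knockout, every gene of a list of up to 10, the called genes with the largest and smallest change of each longer list, and the nearest profile of each marker. A few others (*Ptprc*, *Eng*, *Flt3*, *Hlf*, *Mecom*, *Cdh5*, *Pecam1*, *Cd3d*, *Cd3e*, *Lck*, *Cd8a*, *Cd8b1*, *Gimap1*, *Gimap6*, *Ppbp* and the uncalled neutrophil and monocyte genes, and the members of counts of up to 5) were chosen after their values were seen, as were the sums without *Mpo*, *Prtn3*, *Pf4* and *Clec1b*. The markers, lists and tests were chosen with earlier results of these data known. *Ahsp* and *Mcpt4* were not analysed here, and a few other listed genes are counted but not reported here by name. The fits were tested on simulated counts, where limma recovered 50% of 2-fold and 99% of 4-fold changes. A gene that did not pass may thus still differ between the groups. Intervals cover the spread between these samples.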

Additional observations from a re-analysis of the deposited data

How the results depend on the processing

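The 6 lower markers had negative fold changes in every fit that tested them. Over all genes 2459 were higher and 3113 lower, and without the variance trend 0 and 0 (7377 at an unadjusted p under 0.05), with 0 markers lower and 0 listed genes called in either direction. Of the 9 markers, 1 was higher with edgeR and upper-quartile scaling (*Cd48*), where 19.1% of all tested genes were. With DESeq2 1 was higher (*Kit*), where 16.7% of genes with an adjusted p were. With the replicate block 1 was higher (*Kit*, adjusted p = 0.00118, limma), where 9.63% of genes were. Lower were 5 with DESeq2 (20.3% of genes with an adjusted p lower) and 5 without a filter (5.94% of all genes lower). With at least 10 reads in every sample 5 were lower (22.5% of genes lower), and *Thy1* was not tested. edgeR with TMM called 6 lower, where 20.7% of genes were, and 0 higher, where 18.6% were. *Cd34* had log2 fold changes of 0.0038 and 0.012 with edgeR (TMM, upper quartile), −0.52 without *Pich*-KO sample 1 and 0.36 without *Pich*-KO sample 2. Samples with the same replicate number have no stated link, and their deviations from the group means were hardly correlated (0.013 over 10544 genes). With the replicate block 3122 genes were higher and 3874 lower.

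With 1 sample left out, higher genes numbered 0 to 548, lower genes 0 to 1193, lower markers 0 to 3, and listed genes 0 to 9 higher and 0 to 61 lower. The value of 0 came without *Pich*-KO sample 2, *Pich*-WT sample 1 or *Pich*-WT sample 2, with 7572, 6062 and 5716 genes at an unadjusted p under 0.05 (limma). List medians then ran from −0.95 to −0.42 for HSC and MPP surface genes, −1.78 to −1.09 for HSC-associated genes, −1.20 to −0.43 for SLAM genes, −0.27 to −0.23 for KIT signalling genes, −1.71 to −1.25 for EPCR partners, −1.73 to −0.78 for T cell, −1.12 to 0.32 for B cell, 0.14 to 0.89 for stromal, −1.58 to −0.53 for megakaryocyte, 0.04 to 1.92 for mast cell, −5.15 to −4.84 for macrophage and −0.28 to 1.52 for neutrophil and monocyte markers. With edgeR (TMM, upper quartile) the medians were −0.23 and −0.22 for KIT signalling genes, 1.10 and 1.11 for stromal, 2.15 and 2.16 for mast cell, 0.93 and 0.94 for neutrophil and monocyte and −4.98 and −4.97 for macrophage markers. With at least 10 reads in every sample they were 0.046 for CD34 relatives, 1.09 for stromal, 2.03 for mast cell, 0.31 for neutrophil and monocyte and −4.84 for macrophage markers, as fewer genes are tested. With DESeq2 they were −1.51 for megakaryocyte, 1.76 for mast cell and 0.70 for neutrophil and monocyte markers, and with a pseudocount of 0.1 the mast cell median was 1.57. Otherwise the cause was not tested. The ratios between markers had the same sign in each alternative run.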
